A study of Mus musculus with 69 samples.

Results

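The 8 GABA receptor subunit genes described here were chosen by name from a table of 9930 protein-coding genes, and all 8 were found in it. They are Gabra2, Gabra4 and Gabra5 (alpha subunits), Gabrb1 (a beta subunit), Gabrg1 and Gabrg3 (gamma subunits), Gabrd (the delta subunit) and Gabbr2 (a subunit of the GABA-B receptor). The table holds chromosomes 1 to 7 and part of chromosome 8, so the subunits encoded elsewhere were not analysed here. RNA was sequenced from the hippocampus of 69 male mice, 1 library per mouse, either at postnatal day 66 (P66, adult) or at postnatal day 22 (P22, the day of weaning). Mice labelled knockout (ko) or wildtype (wt) for Cdh13, the gene of T-cadherin, came from litters kept apart from the dam for 3 h daily between P1 and P14 (maternal separation, MS) or from control litters that were handled only (Ctr). The P66 libraries number 7 MS ko, 7 Ctr ko, 10 MS wt and 7 Ctr wt, and the P22 libraries number 10 MS ko, 9 Ctr ko, 11 MS wt and 8 Ctr wt. The mice came from 2 rounds of breeding (cohorts), and all of the groups hold males only. The cohorts are unevenly spread in MS ko mice, where most P22 mice came from cohort 2 and most P66 mice from cohort 1. How Cdh13 was inactivated is not given in the sources used here, and Cdh13 lies outside the part of the table held, so the genotype labels were not checked against its RNA.

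GABA is the main inhibitory transmitter of the adult brain. GABA-A receptors are chloride channels put together from several subunits, usually alpha and beta subunits with a gamma or the delta subunit. The subunits present set where a receptor sits and how it responds: receptors with gamma subunits are mostly found at synapses, while those with the alpha5 or delta subunit lie largely outside them and carry a steady (tonic) current in hippocampal neurons. GABA-B receptors are instead coupled to G proteins, open potassium channels and lower transmitter release, and Gabbr2 is the partner that takes their ligand-binding subunit to the cell surface. In rodents the delta subunit joins the alpha4 subunit in granule cells of the dentate gyrus, and the alpha5 subunit is abundant in hippocampal pyramidal cells.

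The libraries held between 11.3 M and 16.4 M counts (M for mega) in this part of the table (median 13.3 M). Defining genes of the hippocampus were present in every library: Prox1, a granule cell transcription factor, had 193 to 385 CPM at P66 and 216 to 499 CPM at P22 (CPM, counts per M on TMM-scaled library sizes), and Wfs1, a marker of CA1 pyramidal cells, had 178 to 389 CPM at P66 and 210 to 545 CPM at P22. Markers of neighbouring tissue were also read. The summed level of 8 choroid plexus genes ran from 52.7 to 624 CPM at P66 and from 60.7 to 580 CPM at P22, and that of 6 thalamus and habenula genes from 144 to 282 CPM at P66 and from 169 to 376 CPM at P22. No tested marker of any of the 12 cell type and tissue lists was at 0 in any library. For the receptor genes 2 libraries stand apart. That of MS ko P66 animal 56 of cohort 1 (C1-56) had the lowest level of all 69 libraries for Gabra2, Gabra4, Gabrb1, Gabrg1 and Gabrg3 and the highest for Gabrd. That of MS wt P22 animal 51 of cohort 1 (C1-51) had the highest level of all 69 for Gabra5 (678 CPM) and Gabrb1 (718 CPM) and the lowest for Gabrd (40.3 CPM), and with 577 CPM the highest at P22 for Gabra2, where the next of its group had 438 CPM. Calls of the 8 genes that change without either library are given both ways. The labels name no litters, so mice were treated as independent, and p-values are too small where littermates resemble each other.

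The genes lie at 4 places in the genome (GRCm38). Gabrg1 (chr5:70751047-70842617, minus strand), Gabra2 (chr5:70957597-71095849, minus strand), Gabra4 (chr5:71569749-71658308, minus strand) and Gabrb1 (chr5:71658113-72149037, plus strand) form a cluster on chromosome 5. Gabrg3 (chr7:56716465-57387188, minus strand) and Gabra5 (chr7:57407672-57510059, minus strand) are neighbours on chromosome 7. Gabbr2 (chr4:46662305-46991873, minus strand) and Gabrd (chr4:155384980-155398112, minus strand) lie far apart on chromosome 4. The 5′ ends of Gabra4 and Gabrb1 overlap head to head by 196 bases. Whether the counting used strand is not given in the sources used here, so reads from overlapping exons on opposite strands may be shared between genes, which bears on Gabra4, Gabrb1 and Gabra5.

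RefSeq promoter windows (GRCm38.p6, 250 bases before to 50 after the start) were on hand for 7 of the 8 genes, all but Gabrd. Those of the chromosome 5 cluster are shown because the levels of these 4 neighbouring genes varied together from library to library, as described below. Gabrg3 on chromosome 7 varied with them as well. The median r of the 6 cluster pairs was 0.76, and 0.16 once the slope of gene levels on base composition was removed. Whether the promoters play a part was not tested. In each line the sequence runs 5′ to 3′ on the gene's own strand, and capitals mark the GC box GGGCGG on either strand. The windows are chr5:70842568-70842867 for Gabrg1, chr5:71095800-71096099 for Gabra2, chr5:71658259-71658558 for Gabra4 and chr5:71657671-71657970 for Gabrb1, the first of 2 starts listed for that gene.
Gabrg1: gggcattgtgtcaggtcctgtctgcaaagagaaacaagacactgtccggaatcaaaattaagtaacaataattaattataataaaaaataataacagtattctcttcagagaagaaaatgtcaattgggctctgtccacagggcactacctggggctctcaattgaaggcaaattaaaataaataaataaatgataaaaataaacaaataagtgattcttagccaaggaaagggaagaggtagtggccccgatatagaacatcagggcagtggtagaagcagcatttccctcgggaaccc

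Gabra2: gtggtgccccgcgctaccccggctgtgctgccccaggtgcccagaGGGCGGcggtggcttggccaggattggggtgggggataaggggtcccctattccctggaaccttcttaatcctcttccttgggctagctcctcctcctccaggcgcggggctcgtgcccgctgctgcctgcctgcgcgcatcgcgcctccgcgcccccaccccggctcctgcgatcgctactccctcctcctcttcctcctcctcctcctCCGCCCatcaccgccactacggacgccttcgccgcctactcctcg

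Gabra4: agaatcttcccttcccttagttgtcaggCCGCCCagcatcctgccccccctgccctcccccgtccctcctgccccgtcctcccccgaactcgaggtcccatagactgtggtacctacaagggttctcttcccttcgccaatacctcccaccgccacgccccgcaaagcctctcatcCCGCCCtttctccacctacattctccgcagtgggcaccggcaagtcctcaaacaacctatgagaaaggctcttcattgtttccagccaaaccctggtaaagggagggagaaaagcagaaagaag

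Gabrb1: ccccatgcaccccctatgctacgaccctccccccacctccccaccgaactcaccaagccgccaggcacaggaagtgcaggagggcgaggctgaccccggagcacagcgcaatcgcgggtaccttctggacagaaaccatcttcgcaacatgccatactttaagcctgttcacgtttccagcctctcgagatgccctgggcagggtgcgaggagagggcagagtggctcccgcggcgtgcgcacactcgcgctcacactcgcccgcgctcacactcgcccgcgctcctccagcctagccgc

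The 4 windows differ in composition although the genes are neighbours. The window of Gabrg1 is 38.3% G and C and holds 3 CpG dinucleotides, against medians of 52.7% and 7 over 32851 windows of the same length, and only 7.45% of all windows are poorer in G and C. Those of Gabra2 and Gabrb1 are 70.0% and 66.0% G and C with 25 CpG each, and that of Gabra4 is 58.7% with 12. The GC box occurs in 2 places in the windows of Gabra2 and of Gabra4 and is not among the letters of the other 2 windows; 35.7% of all windows hold it. TATAAA on either strand, held by 13.6% of all windows, is in none of the 4. Neither are the cyclic AMP response element TGACGTCA (1.79% of all windows) and the E-box CACGTG (7.15%). The RefSeq starts of Gabra4 and Gabrb1 are 387 bases apart with each gene reading across the other's start. These matches describe the letters only.

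Per kb of exon, Gabra5 and Gabbr2 had the most RNA of the 8 genes and the gamma subunit genes the least. The mean level over 69 libraries was 169 ± 18.6 CPM per kb for Gabra5 and 130 ± 8.24 for Gabbr2 (SD, n = 69). Gabra2 (52.8 ± 10.4), Gabrb1 (38.3 ± 6.47), Gabra4 (37.8 ± 5.29) and Gabrd (21.4 ± 3.73) followed in CPM per kb. Gabrg3 (4.68 ± 0.593) and Gabrg1 (4.23 ± 0.859) were the lowest, well below Gabrd. Gabrb1 and Gabra4, and likewise Gabrg3 and Gabrg1, differed by less than the spread between libraries. The length used is that of all annotated exons of a gene merged, and the order within both pairs turns round with the longest transcript instead. Merged exons and longest transcript are 6083 and 4108 bases for Gabra4 and 13838 and 13737 for Gabrb1. They are 7869 and 4771 bases for Gabrg1 and 11934 and 9767 for Gabrg3. Even the rarest, Gabrg1, had at least 242 counts in each library, so counting error is small beside the spread between mice.

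Across the 8 groups the levels of each gene moved little. The ratio of the highest to the lowest group mean was 1.35 for Gabrd, 1.32 for Gabrb1, 1.28 for Gabrg1, 1.27 for Gabra2, 1.23 for Gabrg3, 1.21 for Gabra4, 1.10 for Gabra5 and 1.09 for Gabbr2. When the group means of a gene are put in order, each of the 7 steps between neighbours was smaller than the larger of the 2 SDs, for all 8 genes. Steps between ordered means tend to be small, and the SD is a spread between mice, so this cannot show whether groups differ. Gabra2, Gabrb1 and Gabrg1 were highest in MS wt P66 and lowest in Ctr ko P22. Gabra4 and Gabrd were highest in Ctr ko P66, Gabbr2 in MS ko P66, Gabra5 in MS wt P22 and Gabrg3 in Ctr wt P22.

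**Figure D1:**
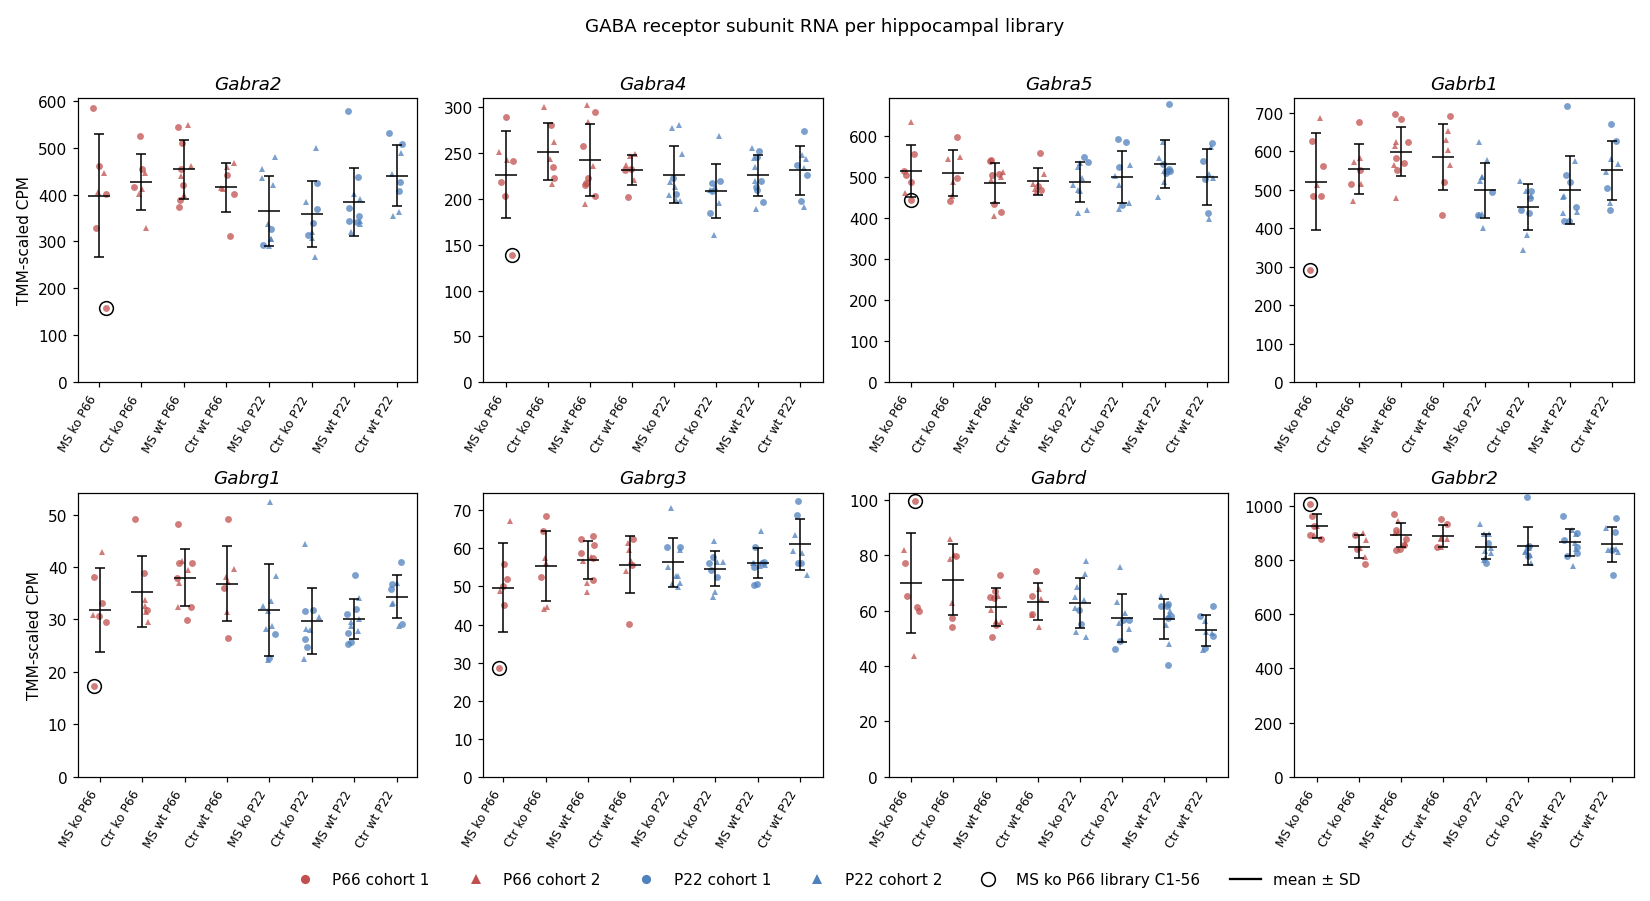
Level of each gene in TMM-scaled CPM (vertical axis, from 0) in every library of the 8 groups, with circles for cohort 1, triangles for cohort 2 and bars for the mean ± SD. All groups overlap, and the ringed library C1-56 of MS ko P66 lies below all others for 5 genes and above all others for Gabrd.

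Between P22 and P66 the subunit genes changed by small amounts, and those that passed the test were higher in the adult. Averaged over the 4 groups of genotype and rearing, 4 of the 8 genes were higher at P66 and 0 were lower (edgeR quasi-likelihood test, Benjamini-Hochberg adjusted p under 0.05 over 7131 genes). Age changed much of the table, since 52% of all genes tested were called, 26.2% higher and 25.8% lower, so the share of subunit genes called lies near that of all genes. The median log2 change of the 8 was 0.12, beside 0.01 over all genes tested.

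Gabrd, whose subunit gives extrasynaptic receptors their high affinity for GABA, had the largest change of the 8. It had 43.8, 64.7 and 99.7 CPM at P66 and 40.3, 57.8 and 78.0 CPM at P22 (lowest, median and highest library). Of the 31 P66 libraries 23 were above the P22 median, and the ages overlapped. The log2 change was 0.21 ± 0.0527 (SE, adjusted p = 0.000571). Its dentate partner Gabra4 had 138, 236 and 302 CPM at P66 and 160, 219 and 281 CPM at P22. Its log2 change of 0.10 ± 0.0475 did not pass (adjusted p = 0.0704), although 22 of 31 P66 libraries were above the P22 median.

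Gabrb1, whose beta subunit forms part of the GABA binding site, had 292, 569 and 697 CPM at P66 and 344, 490 and 718 CPM at P22. Of the P66 libraries 25 of 31 were above the P22 median. It rose by a log2 change of 0.17 ± 0.0540 (adjusted p = 0.00553). Gabra2, whose alpha subunit is found at synapses on the axon initial segment, had 159, 420 and 585 CPM at P66 and 266, 366 and 577 CPM at P22. Although 27 of 31 P66 libraries were above the P22 median, the most of any of the 8 genes, its log2 change of 0.13 ± 0.0681 did not pass (adjusted p = 0.0970). One P66 library lay below all others of both ages.

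The 2 gamma subunit genes gave different values. Gabrg1 had 17.3, 36.1 and 49.2 CPM at P66 and 22.2, 30.3 and 52.4 CPM at P22, and it rose by a log2 change of 0.17 ± 0.0662 (adjusted p = 0.0230), with 26 of 31 P66 libraries above the P22 median. Gabrg3 had 28.7, 56.1 and 68.6 CPM at P66 and 47.3, 56.2 and 72.5 CPM at P22. Its medians were almost equal and its log2 change was -0.07 ± 0.0454 (adjusted p = 0.186).

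Gabra5, the most abundant of the 8 per kb, had 405, 497 and 634 CPM at P66 and 397, 511 and 678 CPM at P22. Its log2 change was -0.02 ± 0.0380 (adjusted p = 0.649), and 9 of 31 P66 libraries were above the P22 median. Gabbr2 had 784, 881 and 1006 CPM at P66 and 743, 842 and 1033 CPM at P22. Its spread was the smallest of the 8, and a log2 change of 0.05 ± 0.0216, a 1.04-fold rise, passed the test (adjusted p = 0.0392). This is a change of RNA in a whole region, where a change in the number of cells of a type and one in RNA per cell cannot be told apart.

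Markers of 10 of the 12 cell type and tissue lists moved with age as well. All 4 tested newborn neuron markers were lower at P66, with a summed level of 54.1 to 92.6 CPM at P66 and 82.2 to 165 CPM at P22. All 7 oligodendrocyte markers were lower too (619 to 1550 CPM at P66 and 1376 to 3364 CPM at P22), as were 4 of 4 astrocyte markers (7071 to 8367 CPM at P66 and 7822 to 9486 CPM at P22), 3 of 4 markers of oligodendrocyte precursors and 3 of 6 of the thalamus and habenula. Of 5 neocortex markers 1 was higher and 3 were lower (538 to 726 CPM at P66 and 566 to 807 CPM at P22). Of 10 interneuron markers 1 was higher and 4 were lower (1146 to 1546 CPM at P66 and 1151 to 1507 CPM at P22). Of 5 CA pyramidal cell markers 1 was higher and 2 were lower (701 to 1117 CPM at P66 and 649 to 1184 CPM at P22), and of 6 endothelial markers likewise 1 and 2 (503 to 623 CPM at P66 and 547 to 680 CPM at P22). Of 6 dentate granule cell markers 3 were higher (C1ql2, Calb1 and C1ql3) and Prox1 was lower. None of the 5 microglia or 8 choroid plexus markers was called. With group and cohort means removed, r between the level of a subunit gene and the score of a list (mean log2 CPM of its markers) over 69 libraries lay between -0.55 (Gabrg1 with CA pyramidal cells) and 0.54 (Gabra4 with granule cells), and was -0.50 for Gabra2 with neocortex. With the choroid plexus score as a covariate the calls of the 4 subunit genes were kept. With the thalamus and habenula score as a covariate Gabrd was the only one of the 8 called (0.28, adjusted p = 1.76e-05), and Gabrb1 had 0.12 (adjusted p = 0.0726), Gabrg1 0.15 (adjusted p = 0.0790) and Gabbr2 0.05 (adjusted p = 0.0667). The part of the other cell types in these changes was not tested.

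**Figure D2:**
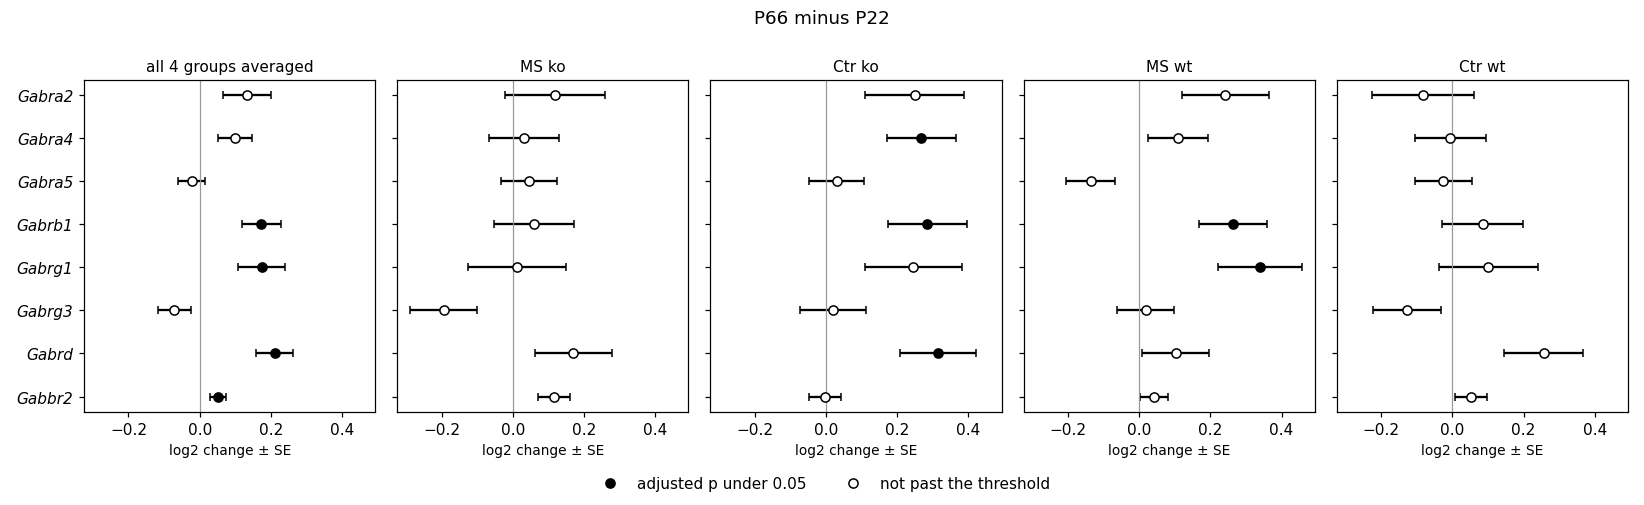
Log2 change from P22 to P66 (P66 minus P22, horizontal axis) of each gene with its SE, averaged over the 4 groups (left) and in MS ko, Ctr ko, MS wt and Ctr wt mice. Filled points passed an adjusted p of 0.05; Gabrd, Gabrb1, Gabrg1 and Gabbr2 did so on average, and no gene did in MS ko or Ctr wt mice.

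Library C1-56 of MS ko P66 touched most of these values. It had 159 CPM for Gabra2, 138 for Gabra4, 292 for Gabrb1, 17.3 for Gabrg1 and 28.7 for Gabrg3, and 99.7 CPM for Gabrd. Without it the averaged log2 change of Gabra2 was 0.16 (adjusted p = 0.0147) and that of Gabra4 0.12 (adjusted p = 0.0164), so that both were called. Gabrb1 (0.19, adjusted p = 0.000520), Gabrg1 (0.20, adjusted p = 0.00581) and Gabrd (0.18, adjusted p = 0.00176) stayed past the threshold. Gabbr2 did not (0.04, adjusted p = 0.0860), and its call was lost without any of 27 of the 69 libraries. Without animal 84 of cohort 2 of the same group (C2-84) Gabrg1 was no longer called (0.15, adjusted p = 0.0561) and Gabrg3 was called as lower (-0.10, adjusted p = 0.0445). Without C1-51 of MS wt P22, Gabra2 (0.16, adjusted p = 0.0343) and Gabra4 (0.11, adjusted p = 0.0410) were called beside the other 4. Of the 69 fits that left out 1 library, Gabrb1 and Gabrd were called in each, Gabrg1 in 68, Gabbr2 in 42, Gabra4 in 10, Gabra2 in 2, Gabrg3 in 1 and Gabra5 in 0.

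In single groups at most 3 of the 8 genes passed. In Ctr ko mice Gabrd (0.31 ± 0.107), Gabrb1 (0.28 ± 0.111) and Gabra4 (0.27 ± 0.0972) rose, with adjusted p = 0.0221, 0.0452 and 0.0313, against a background of 28.1% of genes called, 13.3% higher and 14.9% lower. In MS wt mice Gabrg1 (0.34 ± 0.117) and Gabrb1 (0.26 ± 0.0961) rose, with adjusted p = 0.0219 and 0.0306 and 30.8% of genes called, 14.5% higher and 16.4% lower. None of the 8 passed in MS ko mice, where 19.2% of genes were called (8.16% higher and 11.1% lower) and Gabbr2 came nearest (0.12 ± 0.0447, adjusted p = 0.0574). Without C1-56 none passed there either; Gabra2 then had 0.25 (adjusted p = 0.162), against 0.12 with it, and Gabbr2 0.10 (adjusted p = 0.150). None passed in Ctr wt mice either, where 18.9% were called (8.36% higher and 10.5% lower) and Gabrd came nearest (0.26 ± 0.111, adjusted p = 0.10). These group differences are not shown to be real: no subunit gene was called in the test of whether the age change depends on genotype, on rearing or on both, for which 0, 3 and 1 of 7131 genes passed (0%, 0.0421% and 0.014%; for rearing 0.014% higher and 0.028% lower). Of the 8 genes 0 had an unadjusted p under 0.05 in any of these 3 tests. Single libraries decide these calls. The 3 in Ctr ko mice dropped to 0 without C2-41 or C2-61 of Ctr ko P66, and the 2 in MS wt mice dropped to 0 without C1-46 of MS wt P66. Without C1-51 of MS wt P22 they became 3, as Gabra2 passed (0.33, adjusted p = 0.0301), and in MS ko mice Gabbr2 passed (0.13, adjusted p = 0.0259), as it did in 22 of the 69 fits that left out 1 library. The call of Gabrb1 in Ctr ko mice was lost in 23 of them.

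The direction of the averaged age change was the same in both breeding cohorts for the 4 genes called. Gabrd changed by 0.26 in cohort 1 (adjusted p = 0.0107) and 0.15 in cohort 2 (adjusted p = 0.0936), Gabrg1 by 0.29 (adjusted p = 0.0311) and 0.16 (adjusted p = 0.131), Gabrb1 by 0.16 (adjusted p = 0.209) and 0.23 (adjusted p = 0.00471), and Gabbr2 by 0.05 (adjusted p = 0.336) and 0.06 (adjusted p = 0.0529). Each was thus called in 1 cohort alone or in neither. Between the cohorts themselves no subunit gene differed past the threshold, and the averaged difference was called for 0% of genes.

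Other genes of the GABA system also changed with age, in both directions, on the background of 52% of all genes called (26.2% higher and 25.8% lower). Of the other receptor subunit genes 3 were tested. Gabrr2, a subunit of receptors best known from the retina, rose by a log2 change of 0.78 ± 0.114 at a very low level (2.78 ± 0.887 CPM at P66 and 1.63 ± 0.530 CPM at P22; SD, n = 31 and 38). Gabrr1, of the same receptor type, was not called (-0.18 ± 0.116).

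Among 10 tested genes for assembly, anchoring and auxiliary proteins 4 were higher and 4 lower at P66. Trak2, an adaptor that links cargo to kinesin, fell by 0.50 ± 0.0245 on the log2 scale and Lhfpl3, a relative of the receptor partner Lhfpl4, by 0.38. Plcl1, a receptor trafficking protein, fell by 0.12 and Shisa7, an auxiliary subunit of GABA-A receptors, rose by 0.11. The median over the list was -0.06.

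Of 7 tested genes for making, packing and clearing GABA 1 was higher and 2 were lower. Gad1, a GABA-synthesizing enzyme, rose by 0.10 ± 0.0188, while the vesicular transporter gene Slc32a1 fell (-0.13 ± 0.0395). Of 5 genes for chloride and bicarbonate balance 3 were higher and 0 lower, among them the carbonic anhydrase gene Car2 (0.21 ± 0.0347) and the chloride extruder gene Slc12a5 (0.14 ± 0.0234, adjusted p = 4.81e-07). Of 6 tested effectors of the GABA-B receptor 3 were higher and 2 lower. The potassium channel gene Kcnj3 rose by 0.16 ± 0.0372 and Gnai1 by 0.11 ± 0.0370, whereas the G protein genes Gnai3 (-0.18 ± 0.0340) and Gnb1 (-0.12 ± 0.0157) fell. The median log2 change was -0.02 for the GABA handling list, 0.08 for chloride balance and 0.07 for the effectors, beside 0.01 for all genes.

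Genotype and rearing were compared within each age, as the design text of the study describes. None of the 8 subunit genes passed for genotype, rearing, their interaction or any of the 4 effects within single groups, at either age (edgeR). At P22 0% of 7036 genes were called in each of these tests. At P66 0.0571% of 7001 genes were called for genotype (0.0143% higher and 0.0429% lower) and 0.371% for rearing (0.129% higher and 0.243% lower). So few genes were called that the subunit genes cannot be set apart from the rest.

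For ko against wt mice at P66, the largest averaged difference was in Gabrd, with 43.8 to 99.7 CPM in ko mice of both rearings and 50.5 to 74.4 CPM in wt mice. Its log2 difference was 0.17 ± 0.0847 (unadjusted p = 0.0495, adjusted p = 0.597), and 0.13 without library C1-56 (adjusted p = 0.813). Gabrg1 (-0.17 ± 0.101) and Gabrb1 (-0.14 ± 0.0846) had values on the other side and did not pass either; without C1-56 they were -0.11 (adjusted p = 0.853) and -0.09 (adjusted p = 0.840). At P22 the largest averaged difference was that of Gabra2 (-0.18 ± 0.0834, unadjusted p = 0.0404, adjusted p = 0.832). Without C1-51 of MS wt P22 the value of Gabra2 was -0.15 (adjusted p = 0.841). In control litters Gabra2 had 266, 339 and 500 CPM in ko mice and 354, 436 and 531 CPM in wt mice (lowest, median and highest). There the log2 difference was -0.30 ± 0.120 for Gabra2, -0.28 ± 0.0995 for Gabrb1 and -0.16 ± 0.0647 for Gabrg3, each with an unadjusted p under 0.05 and an adjusted p = 0.389. The slope of gene levels on base composition described below had means of 0.07 in Ctr ko P22 and -0.04 in Ctr wt P22. Its ranges overlapped (-0.12 to 0.23 and -0.18 to 0.05). Whether it differs between these groups was not tested, and it was made a covariate only after the data were seen. With that slope as a covariate the differences were -0.08 for Gabra2, -0.11 for Gabrb1 and -0.06 for Gabrg3 (each with an adjusted p = 0.999). The 3 genes had values near 0 in MS litters (-0.06, 0.01 and 0.01). The interaction of genotype and rearing was 0.24 for Gabra2 (adjusted p = 0.632), 0.29 for Gabrb1 (adjusted p = 0.584) and 0.17 for Gabrg3 (adjusted p = 0.587), and none passed.

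For MS against Ctr mice at P66, Gabbr2 had the smallest p. In ko mice it had 878, 923 and 1006 CPM after separation and 784, 844 and 898 CPM in controls, so that the groups overlapped only slightly. The log2 difference was 0.12 ± 0.0390 (unadjusted p = 0.00492, adjusted p = 0.265) and 0.10 without C1-56 (adjusted p = 0.448). In wt mice the same comparison gave -0.000714 ± 0.0355 (adjusted p = 0.997). The interaction of genotype and rearing for Gabbr2 was 0.12 ± 0.0521 (unadjusted p = 0.0294, adjusted p = 0.794) and did not pass. Averaged over genotype its rearing difference was 0.06 ± 0.0267 (adjusted p = 0.359). The averaged rearing differences of the other 7 genes at P66 lay between -0.07 and 0.02, with SE between 0.0531 and 0.112, and between -0.09 and 0.08 without C1-56. At P22 all 8 averaged rearing differences lay between -0.08 and 0.11 (between -0.13 and 0.13 without C1-51 of MS wt P22), and the smallest p was that of Gabrd (0.11 ± 0.0601, unadjusted p = 0.0636, adjusted p = 0.999). No gene of the 5 other GABA lists was called in the 4 averaged comparisons of genotype and rearing.

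**Figure D3:**
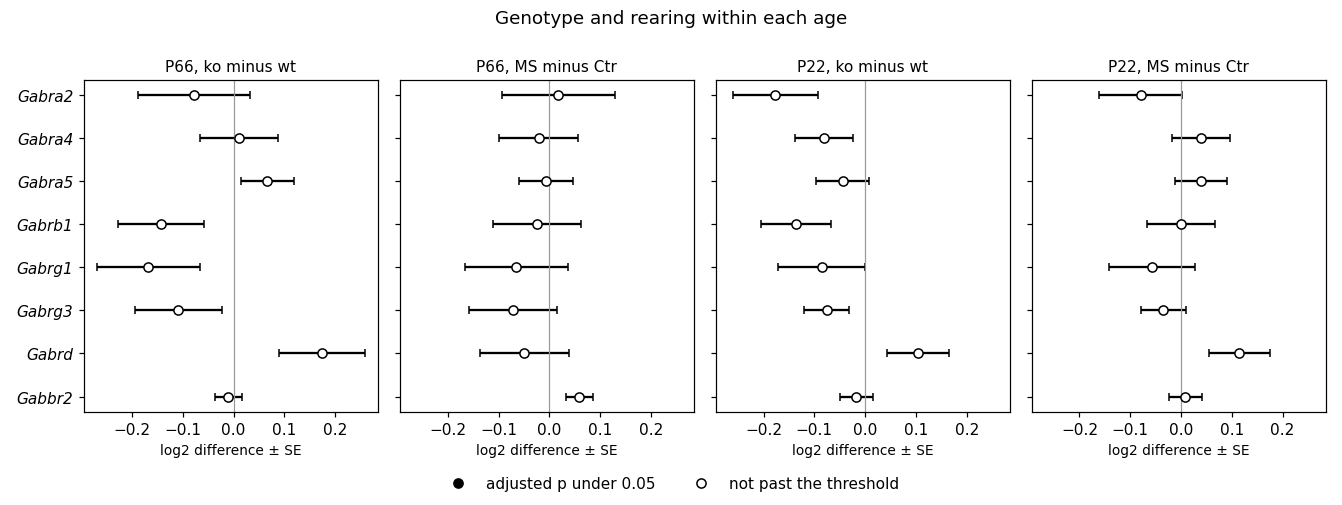
Log2 difference with SE of each gene for ko minus wt and for MS minus Ctr mice, at P66 (left pair) and at P22 (right pair). All points are open because none passed an adjusted p of 0.05, and all lie between -0.18 and 0.17.

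From library to library the subunit genes did not vary independently. After group and cohort means were removed, the 4 genes of the chromosome 5 cluster varied together, with Pearson's r between 0.61 and 0.83 in their 6 pairs over 69 libraries (Spearman's rho 0.54 to 0.76). For each pair r was also taken without the 2 libraries farthest from the median of 1 of its genes, and was 0.51 to 0.78. Within the cohorts r was 0.57 to 0.87 in cohort 1 and 0.65 to 0.79 in cohort 2 (33 and 36 libraries). Gabrg3, on chromosome 7, moved with them as well (r 0.54 to 0.72). Gabrd ran against them: its r with each of the 6 genes other than Gabbr2 was negative, from -0.65 with Gabrg3 to -0.31 with Gabra4. Gabbr2 had r between -0.40 and 0.33 with these 6 genes and 0.08 with Gabrd. All 28 pairs were computed on the same libraries, which share their depth and scaling, so r is given as a description with no test.

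**Figure D4:**
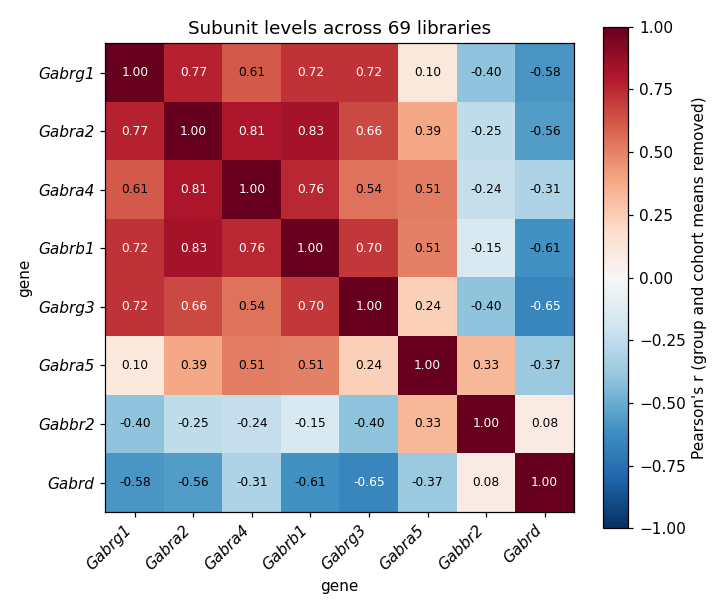
Pearson's r between the levels (log2 CPM, group and cohort means removed) of each pair of genes over 69 libraries, ordered with the chromosome 5 cluster first. The 4 cluster genes and Gabrg3 form a block of r from 0.54 to 0.83, and Gabrd is negative against it.

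The levels of the same genes followed a slope of gene levels on base composition, taken for each library. For each library the slope of gene levels on the G and C share of the transcript was taken over 5667 genes other than the 8, in log2 units per 10 percentage points. It ran from -0.21 to 0.23 in 68 libraries and was 0.42 in C1-56. Its r with the level of the gene was -0.89 for Gabra4, -0.87 for Gabra2, -0.83 for Gabrb1, -0.78 for Gabrg1, -0.72 for Gabrg3 and -0.39 for Gabra5, and 0.55 for Gabrd and 0.39 for Gabbr2 (Spearman's rho -0.90, -0.86, -0.77, -0.72, -0.59, -0.40, 0.42 and 0.41 in the same order). For Gabrd r was 0.68 in cohort 1 and 0.41 in cohort 2, and for Gabra4 -0.92 and -0.87. Without the 2 libraries farthest from the median slope r was -0.87 for Gabra4, -0.83 for Gabra2, -0.78 for Gabrb1, -0.71 for Gabrg1, -0.62 for Gabrg3, -0.44 for Gabra5, 0.46 for Gabrd and 0.33 for Gabbr2. The transcripts of the 6 negative genes are 35.3% to 47.1% G and C, those of Gabrd and Gabbr2 54.7% and 56.0%, and the median over the 5667 genes is 49.8%. By construction, genes poor in G and C tend to a negative r with such a slope and rich ones to a positive r. The median r over the 5667 genes was 0.09. The base composition of the reads themselves was not measured. The slope also moved with transcript length (r between both slopes -0.84), so the 2 cannot be told apart here. When the slope was removed along with group and cohort, r in the 6 cluster pairs lay between -0.32 and 0.39 with a median of 0.16. Gabra4 then had an r of 0.50 with Gabrd and Gabra5 one of 0.57 with Gabbr2, the largest of the 28.

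**Figure D5:**
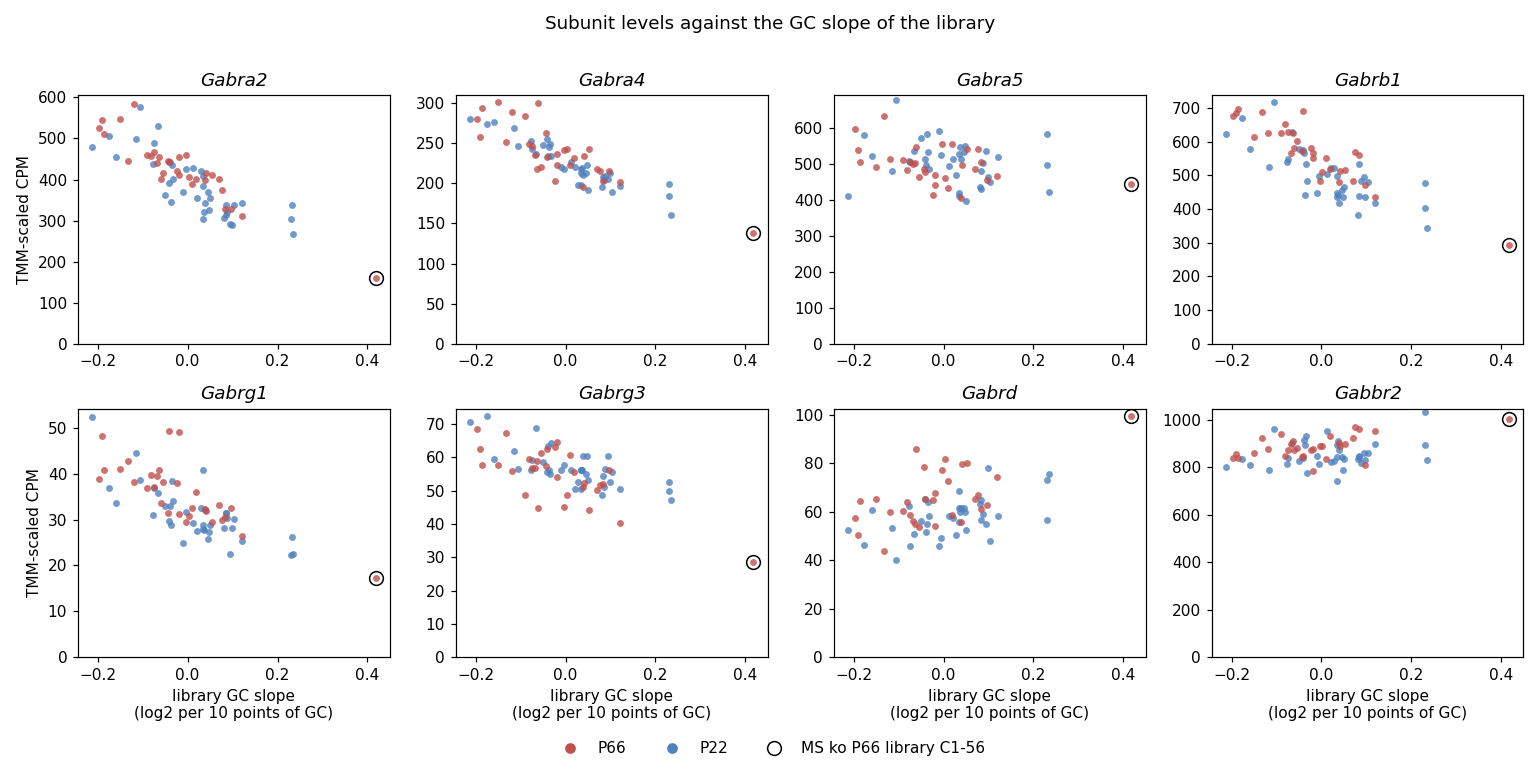
Level of each gene in TMM-scaled CPM (vertical axis, from 0) against the GC slope of its library in log2 units per 10 percentage points, with P66 libraries in red and P22 libraries in blue. Gabra2, Gabra4, Gabrb1, Gabrg1 and Gabrg3 fall along the slope, and the ringed library C1-56 lies at its far end at 0.42.

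The group means of the slope were between -0.07 and 0.05 at P66 and between -0.04 and 0.07 at P22. Whether the slope differs with age was not tested. With it as a covariate, an alternative added after the data were seen, the averaged log2 change was 0.24 for Gabrd (adjusted p = 3.45e-06), 0.11 for Gabrb1 (adjusted p = 0.00233), 0.11 for Gabrg1 (adjusted p = 0.0291) and 0.06 for Gabbr2 (adjusted p = 0.00666). These 4 stayed higher at P66. Gabrg3 was called as lower (-0.12, adjusted p = 0.00170), while Gabra2 (0.05, adjusted p = 0.265) and Gabra4 (0.04, adjusted p = 0.0787) were not called. In Ctr ko mice Gabrd then rose by 0.42 (adjusted p = 0.000272) and Gabra4 by 0.13 (adjusted p = 0.0270). In MS wt mice Gabra5 was called as lower (-0.18, adjusted p = 0.0225) and Gabrb1 as higher (0.14, adjusted p = 0.0490), while Gabrg1 missed the threshold (0.19, adjusted p = 0.0511). In MS ko mice Gabrg3 and Gabbr2 passed. No subunit gene was called for genotype or rearing in these fits.

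The genes whose levels were most like each member, over 7130 other genes, were Tmem106b (r = 0.94), Gm14325 and Gm4631 for Gabra2, and Lin7c (0.94), Rab30 and Cnot6l for Gabra4. For Gabra5 they were Neurod6 (0.85), a transcription factor of pyramidal neurons, with Actr3 and Nckap1, and for Gabrb1 Braf (0.88), Gdap1 and Bmpr2. Gabrg1 was most like Zdbf2 (0.85), the neuregulin receptor gene Erbb4 (0.84) and Gad2 (0.84), a GABA-synthesizing enzyme. Gabrg3 was most like Chl1 (0.83), Whsc1 and the dendrite gene Map2 (0.82). Gabrd was most like Gss (0.73), the zinc transporter gene Slc30a3 (0.72) and Lrtm2, and Gabbr2 like Syt13 (0.82), Arhgef4 and the adenosine receptor gene Adora1 (0.79). All r are over 69 libraries with group and cohort means removed, and the shared slope described above enters them.

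The genes next to the receptor genes did not follow 1 pattern with age. Beside the chromosome 5 cluster Cox7b2, which lies between Gabra2 and Gabra4, rose by 0.39 ± 0.129 and Commd8, beyond Gabrb1, by 0.14 ± 0.0259, while Gnpda2 was not called (0.06 ± 0.0484). Beside the chromosome 7 genes Oca2 was not called (-0.12 ± 0.137). Cfap74 rose by 0.16 ± 0.0383 and Prkcz fell by 0.07 on the log2 scale on either side of Gabrd, and Tbc1d2 (-0.05 ± 0.0608) and Anks6 (0.02 ± 0.0370) beside Gabbr2 were not called.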

How the data were processed

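Hippocampal RNA of 69 mice was sequenced. The authors deposited 1 table of raw read counts per gene, per the file headers not normalized, of which 9930 complete records were used and 1 broken record was left out. The tools named by the submitters' processing notes are limma 3.34.9, edgeR, cutadapt 1.16 and FastQC 0.11.4. No aligner, read counter, strand setting or genome build is given in the sources used here. Of the gene IDs 99.55% are in GENCODE M21 (GRCm38), 96.5% of these at the same position. The share of reads that name no gene was not analysed here.

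From the counts, edgeR 4.0.16 (R 4.3.3) fitted quasi-likelihood models after filterByExpr (minimum count 10, minimum total 15) and TMM scaling, with Benjamini-Hochberg adjustment over all genes tested and a threshold of 0.05. Age was tested in 1 fit of 69 libraries on group and cohort. Genotype and rearing were tested in the libraries of each age. SE is the log2 change divided by the root of F. Levels are TMM-scaled CPM, and correlations use log2 CPM with a prior count of 2. The depth of 11.3 M to 16.4 M counts left each of the 8 genes at least 242 counts in each library. No pair of libraries within a group was alike within sampling noise (272 pairs). The edgeR fits of the averaged age change and of the averaged genotype difference at P66 were tested on simulated counts with known changes. The other steps were not tested in this way.

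The 8 genes and all lists were chosen with earlier results of these data known. Named were the 8 genes, the 3 genes most like each, the nearest gene on either side, and from each GABA list up to 4 genes past the threshold with the largest change and up to 2 others with the smallest p. Some of the genes so chosen are not reported here. Alternatives were DESeq2 1.42.0, limma-voom (limma 3.58.1), RLE scaling, no or a stricter count filter (1 CPM in 7 libraries), each cohort by itself, a fit without the cohort term, all libraries in 1 fit, choroid plexus or thalamus and habenula scores as covariates, leaving out 7 libraries far from the median choroid plexus score, a threshold of 0.1 and leaving out each library. The GC slope of the library as a covariate was added after the data were seen.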

Additional observations from a re-analysis of the deposited data

Results flagged for a closer look

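In the 7 groups of 7 to 10 libraries, 5 of 56 sets of values for the 8 genes held a library far from the others of its group, where chance gives about 1 in 20. Gabbr2 had 1033 CPM in Ctr ko P22 library C1-4. Gabra2 had 311 CPM and Gabrg3 40.2 CPM in Ctr wt P66 library C1-58. Gabrg1 had 44.5 CPM in Ctr ko P22 library C2-96, and Gabrg3 had 70.6 CPM in MS ko P22 library C2-36. The GC slope of MS ko P66 library C1-56 was 0.418 log2 units per 10 percentage points, far above the other 6 libraries of its group. The 11 libraries of MS wt P22, C1-51 among them, were too many for this test. What sets these libraries apart was not tested.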

How the results depend on the processing

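No alternative reversed a call among the 8 genes. Averaged over groups, the 4 calls with age became 2 in cohort 1 alone (Gabrg1 and Gabrd), 2 in cohort 2 alone (Gabra2 and Gabrb1) and 1 with the thalamus and habenula score as a covariate (Gabrd). With no filter Gabbr2 was lost (adjusted p = 0.105). Gabra4 was added by the stricter filter, Gabrg3 by the GC slope, and Gabra2 with Gabra4 without the 7 libraries far in choroid plexus score or at a threshold of 0.1. In Ctr ko mice the 3 calls became 0 in either cohort alone and 1 (Gabrd) with that score, and in MS wt mice the 2 calls became 0 in either cohort alone. In Ctr wt mice Gabrd, 1 of 8, was called with either score as a covariate, against 0 otherwise. In MS ko mice the count of 0 became 1 (Gabbr2) with DESeq2, the stricter filter, no cohort term, the choroid plexus score, without the 7 libraries far in that score or at a threshold of 0.1, and 2 (Gabrg3 and Gabbr2) with the GC slope. Leaving out each library gave 3 to 6 calls with age on average, 0 to 1 in MS ko, 0 to 3 in Ctr ko, 0 to 3 in MS wt and 0 in Ctr wt mice, and 0 in all tests of genotype, rearing and interactions. The cause was not tested. Over 13 alternatives Gabrd was called in 12, Gabrb1 and Gabrg1 in 11, Gabbr2 in 9, Gabra2 and Gabra4 in 3 each, Gabrg3 in 1 and Gabra5 in 0. Among the 13 is the main fit read at a threshold of 0.1, which keeps the 4 calls by construction. For genotype and rearing, the lowest adjusted p of the 8 genes was 0.139 over these alternatives and 0.154 over the fits without 1 library.

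Over all genes, the 3707 called with age became 2176 in cohort 1 alone. Counts in cohort 1 and cohort 2 alone were 444 and 461 against 1371 in MS ko, 391 and 1270 against 2006 in Ctr ko, 1203 and 903 against 2198 in MS wt and 452 and 568 against 1348 in Ctr wt mice. Each of these fits holds fewer libraries. In MS ko mice cohort 1 holds few at P22 and cohort 2 few at P66. Age by genotype called 0 genes, and 5 in cohort 2. Age by rearing called 3, 0 in either cohort and 6 with the GC slope. The 3-way interaction called 1, and 0 in either cohort or without the libraries far in choroid plexus score. For P66 genotype 4 genes became 11 with DESeq2, 0 and 96 in the cohorts, 9 with the GC slope and 8 at a threshold of 0.1. For P66 rearing 26 became 98 with DESeq2, 9 with no filter, 41 with no cohort term, 0 and 2 in the cohorts, 17 and 5 with the choroid plexus and thalamus scores, 4 without the libraries far in choroid plexus score, 191 with the GC slope and 59 at 0.1. Within single P66 groups the counts of 0 became at most 26.

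No paired analysis was possible because animal numbers run within cohort and rearing group and name different animals. Littermates could not be modelled, and the genotype labels were not checked.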
